A study of Mus musculus with 2 samples.

Results

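The tendon-type genes Scx, Tnmd and Mkx were described in single-cell transcriptomes of mouse molars at PN15.5 (postnatal day). The members were the rows of the deposited matrices that carry these symbols, which gave 3 of 34285 genes. First mandibular molars with the tissue around them came from C57BL/6J mice given clodronate liposomes (Lipo-Clo), which deplete phagocytic macrophages, or vehicle liposomes (Lipo-PBS). Mice received 4 intraperitoneal injections of Lipo-Clo at 40 μg/g, one every 3 days from PN3.5 on, and vehicle liposomes were given on the same days. Each condition had 1 library, and the number of mice pooled in it is not given in the sources used here. The cells were freed with Dispase and Collagenase I, so the mixture of cells in a library also carries what the digestion released. With 1 library per condition no difference between conditions could be tested, and all intervals below are 95% intervals for counting error only.

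Scx (scleraxis) is a basic helix-loop-helix transcription factor that marks progenitors of tendons and ligaments and drives their matrix genes. Tnmd (tenomodulin) is a type II transmembrane glycoprotein that appears as tendon and ligament cells mature, and Mkx (Mohawk) is a homeobox factor of the TALE class that promotes collagen fibril growth in tendon. The periodontal ligament, which ties the root to the bone, shares this programme with tendons, and its cells descend from the dental follicle around the growing tooth.

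In the GRCm38 annotation Scx (ENSMUSG00000034161) lies on chromosome 15 from 76457452 to 76459458 on the plus strand, wholly inside an intron of Bop1, a ribosome biogenesis gene on the minus strand. Tnmd (ENSMUSG00000031250) runs on the plus strand of the X chromosome from 133850980 to 133865577. These coordinates were joined by Ensembl identifier, since the submitters' notes name GRCm39. Whether counting used strand is not given in the sources used here, so Bop1 is reported beside Scx. The 222 bases before the annotated start of Tnmd (RefSeq, GRCm38.p6) are shown because CANNTG, the E-box that helix-loop-helix factors recognise, was searched there on both strands. Tnmd was taken because it was found more often than Mkx in cells with a Scx UMI (unique molecular identifier, 1 captured transcript). That order also held over all mesenchymal cells, so it does not by itself tie Tnmd to Scx.
Tnmd, chrX:133850758-133850979 (+): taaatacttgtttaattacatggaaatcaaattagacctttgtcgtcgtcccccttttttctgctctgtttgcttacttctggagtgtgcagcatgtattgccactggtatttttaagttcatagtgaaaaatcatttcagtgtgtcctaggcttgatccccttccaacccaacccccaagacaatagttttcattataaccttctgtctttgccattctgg
The motif would stand in capitals, and these letters hold 0 matches. Of 32851 windows of the same length before other starts, 62.4% held at least 1 match.

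Deposited were 9362 cells (31053404 UMIs) for Lipo-Clo against 9653 cells (30537834 UMIs) for Lipo-PBS. After filters on genes, mitochondrial UMIs and doublets 8254 and 8261 cells were kept, with 30 cell barcodes shared by the deposited libraries. Cells with at least 3 UMIs of the C1q genes, which mark tissue macrophages, were 163 of the Lipo-Clo and 287 of the Lipo-PBS cells. Dental mesenchyme made up 4091 Lipo-Clo cells (49.6%) and 3889 Lipo-PBS cells (47.1%), with median depths of 2785 and 2948 UMIs. Mitochondrial genes took 0.392% (Lipo-Clo) and 1.64% (Lipo-PBS) of the mesenchymal UMIs. A further cluster with markers of several lineages, 69 cells in Lipo-Clo against 731 in Lipo-PBS, was kept out of the mesenchyme.

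The mesenchyme was split into 10 states from variable genes that did not include the members, and the states were named from markers. State 0 was periodontal ligament-like and led by Crispld2 and Tnn. State 4 was also periodontal ligament-like, was led by Edil3 and Angptl1, and had 4 of 8 tendon markers besides. State 3 was dental follicle-like (Dio2, Moxd1) with 5 of 6 follicle markers. It also had 4 of 7 periodontal ligament markers, where state 0 had 3 of 7, so follicle- and ligament-like states are not cleanly apart. State 2 was osteoblast- or cementoblast-like (Bglap2, Ibsp). States 1 and 8 were fibroblast-like (Clec3b, Cd34), states 5 and 6 papilla- or pulp-like (Ctnnd2 and Lrrc4c), and state 9 odontoblast-like (Dspp). State 7, led by Pcp4 and Mmp13, met no marker rule and stays unnamed. The libraries filled the states unequally: state 4 held 229 Lipo-Clo and 580 Lipo-PBS cells, and state 0 held 739 and 435.

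The members went different ways in the mesenchyme as a whole: Scx and Mkx were lower in Lipo-Clo and Tnmd was slightly higher. Scx gave 111 UMIs in Lipo-Clo and 207 in Lipo-PBS, which is 8.30 UMIs per 1000000 (CPM, interval 6.83 to 9.99) and 16.2 CPM (14.04 to 18.5). The log2 ratio of Lipo-Clo to Lipo-PBS was -0.96 (-1.31 to -0.62). Tnmd gave 4479 UMIs (335 CPM, 325 to 345) and 3621 UMIs (283 CPM, 274 to 292), a log2 ratio of 0.24 (0.18 to 0.31). Mkx stood between these patterns, with 435 UMIs (32.5 CPM, 29.5 to 35.7) in Lipo-Clo and 601 UMIs (46.9 CPM, 43.3 to 50.8) in Lipo-PBS. Its log2 ratio was -0.53 (-0.71 to -0.35). With mitochondrial, haemoglobin and ribosomal protein genes kept out of the totals, the ratios were -0.99 for Scx, 0.22 for Tnmd and -0.55 for Mkx. Bop1, the gene around Scx, was at 12.7 and 12.2 CPM with a log2 ratio of 0.06 (-0.26 to 0.38).

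Scx was the member past a 1.5-fold limit, and Tnmd and Mkx stayed inside it. Among the 15101 genes with at least 20 UMIs in the mesenchyme, 9.23% were lower by that limit and 5.58% higher. The Scx ratio did not keep its size or sign once the libraries were given the same mixture of cells. Weighting both libraries to 1 mixture of the 10 states gave -0.21, and a mixture of finer states, chosen after seeing the data, gave 0.22. Thinning each cell to 1000 UMIs gave -0.32 (-0.92 to 0.27) for Scx. Tnmd moved to 0.16 with the mixture of 10 states and to -0.04 with that of the finer states. Mkx was lower under either mixture, at -0.68 and -0.70, and was at -0.32 (-0.67 to 0.03) after thinning.

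Detection per cell had the same directions. A Scx UMI was found in 73 cells (1.78%) of the Lipo-Clo mesenchyme and in 156 cells (4.01%) of the Lipo-PBS mesenchyme. At 1000 UMIs per cell these shares were 0.917% (0.636 to 1.28) and 1.38% (1.03 to 1.81), whose intervals overlapped. Tnmd was found in 37.8% and 34.5% of cells, and in 22.8% and 18.6% after thinning. Mkx was found in 9.24% and 12.52% of cells, and in 3.21% and 4.00% after thinning. Thinning left out 383 Lipo-Clo and 263 Lipo-PBS cells that were shallower. At least 1 member was found in 42.4% and 42.2% of cells. In neutrophils, which should lack all 3 genes, the shares over both libraries were 0.287% for Scx, 6.74% for Tnmd and 1.43% for Mkx, at median depths of 2675 UMIs in Lipo-Clo and 1859.5 UMIs in Lipo-PBS.

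**Figure D1:**
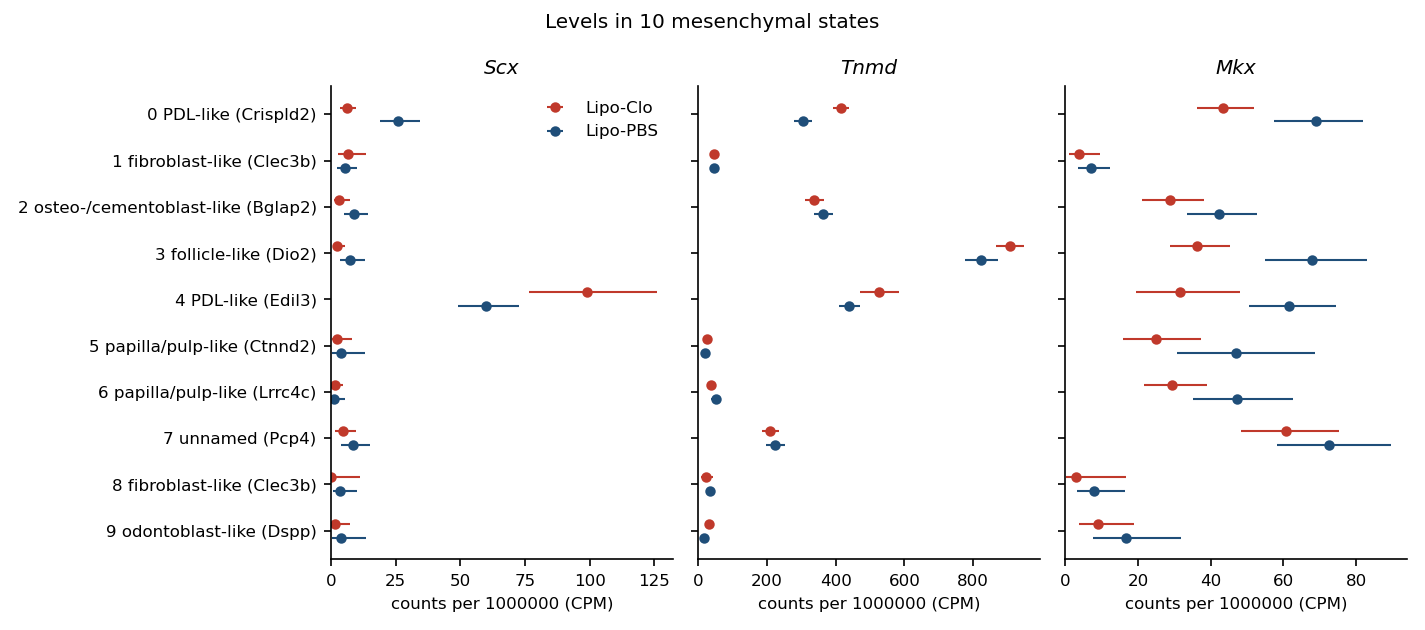
Scx, Tnmd and Mkx in 10 mesenchymal states: points give counts per 1000000 (CPM) of the summed cells of Lipo-Clo (red) and Lipo-PBS (blue), and bars give 95% Poisson intervals. Scx stood out in state 4 at 99.0 and 60.0 CPM, Tnmd in state 3 at 907 and 823 CPM, and Mkx was spread over states 7, 0, 4 and 3.

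Scx was concentrated in state 4. Over both libraries it stood at 70.7 CPM (60.5 to 82.0) there, at 13.8 CPM (10.7 to 17.6) in state 0, and between 1.14 and 6.21 CPM in the other 8 states. Of these 8, state 6 (1.14 CPM, 0.235 to 3.33) lay below states 2 (3.76 to 9.28) and 7 (3.55 to 10.1), and the other intervals overlapped. State 4 held 809 of the 7980 mesenchymal cells and 172 of the 318 Scx UMIs (54.1%, 48.4 to 59.7). In Lipo-Clo state 4 gave 66 UMIs from 34 cells, 99.0 CPM (76.6 to 126), and in Lipo-PBS 106 UMIs from 72 cells, 60.0 CPM (49.1 to 72.5). Scx was thus found in 34 of 229 Lipo-Clo cells and 72 of 580 Lipo-PBS cells of state 4. After thinning these shares were 9.26% (5.75 to 13.9) and 5.85% (4.04 to 8.16), whose intervals overlapped. The log2 ratio of CPM within state 4 was 0.72 (0.26 to 1.18), so the summed Scx level was higher in Lipo-Clo there. This held for a finer tendon-like state within it with 64 and 85 of these UMIs, and not for a ligament-like finer state, which had 2 UMIs in 137 Lipo-Clo cells of state 4 and 21 UMIs in 273 Lipo-PBS cells. Over all its cells that ligament-like finer state was at 4.43 against 21.8 CPM (log2 ratio -2.30, -5.43 to -0.28). In state 4, 8.1% of the 9263 genes with at least 20 UMIs were higher by 1.5-fold or more and 19.3% were lower.

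In state 0 the direction was the opposite one. Scx gave 17 UMIs (5.96 CPM) in Lipo-Clo against 48 UMIs (25.8 CPM) in Lipo-PBS, so that the log2 ratio was -2.12 (-3.01 to -1.29). It was found in 1.89% of the Lipo-Clo cells and 9.20% of the Lipo-PBS cells of that state. Of 10469 genes in state 0, 10.4% were lower by 1.5-fold or more and 11.8% higher. In state 2, the osteoblast- or cementoblast-like cells, Scx rested on 5 and 16 UMIs, 3.05 against 8.78 CPM, with a log2 ratio of -1.53 (-3.33 to -0.01). There 7.18% of 10114 genes were lower by that limit and 7.85% higher. In the follicle-like state 3 it gave 5 and 10 UMIs (log2 ratio -1.60, -3.50 to 0.08), which did not differ beyond counting error. The papilla- or pulp-like states 5 and 6 held 4 and 3 Scx UMIs in all, and the odontoblast-like state 9 held 3.

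**Figure D2:**
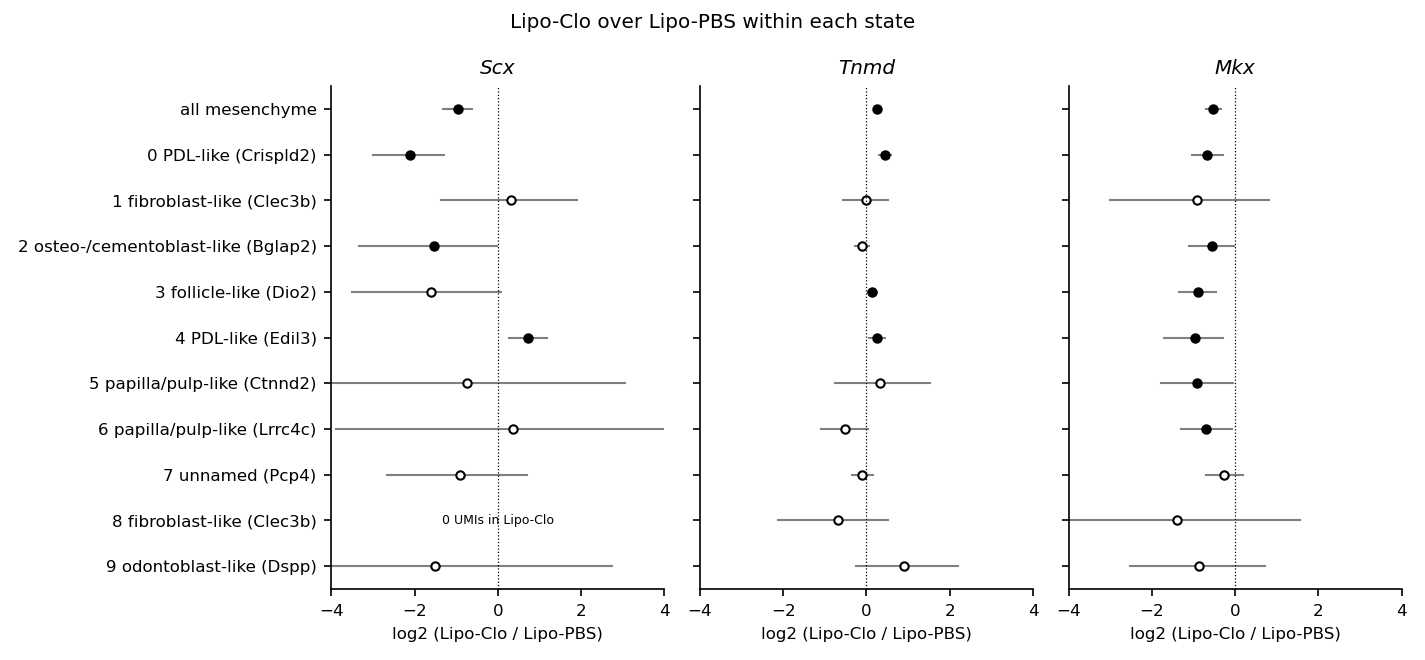
Log2 ratio of Lipo-Clo to Lipo-PBS for each member over all mesenchyme and in each of 10 states, with 95% intervals for counting error that are drawn only as far as -4 and 4. Filled points have intervals that leave out 0, which for Scx were state 0 (-2.12), state 2 (-1.53) and state 4 (0.72), and Mkx was below 0 in every state.

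Tnmd was highest in the follicle-like state 3, followed by the ligament-like states 4 and 0 and the osteoblast- or cementoblast-like state 2. In the follicle-like state 3 it reached 907 CPM (867 to 948) and 823 CPM (776 to 871), Lipo-Clo first, and was found in 84.0% and 77.3% of cells. State 4 followed with 525 and 440 CPM, and state 0 with 414 and 305 CPM. State 2 held 337 and 363 CPM, and the unnamed state 7 held 209 and 224 CPM. Over both libraries the order was state 3 (873 CPM), state 4 (463), state 0 (371), state 2 (351) and state 7 (216), and among these neighbours only the intervals of states 0 and 2 overlapped. State 3 gave 3113 of the 8100 Tnmd UMIs of the mesenchyme (38.4%, 37.4 to 39.5). State 2 gave 1214 of them (15.0%) and the ligament-like state 4 gave 1127 (13.9%).

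The other 5 states stood apart, with 23.0 to 45.7 CPM of Tnmd over both libraries. These fibroblast-, papilla- or pulp- and odontoblast-like levels were no higher than the 50.2 CPM of erythroid cells, so they are read as background. Tnmd differed beyond counting error between the libraries in 3 states and was higher in Lipo-Clo in each. The log2 ratio was 0.44 (0.30 to 0.59) in state 0, 0.26 (0.07 to 0.44) in state 4 and 0.14 (0.03 to 0.25) in state 3. In states 2 and 7 it was -0.11 (-0.27 to 0.06) and -0.10 (-0.34 to 0.15). These directions did not hold in all finer states. In the follicle-like finer states 5 and 7 the log2 ratios were -0.11 (-0.27 to 0.05) and -0.12 (-0.30 to 0.07). In the ligament-like finer states 3 and 8 Tnmd was lower in Lipo-Clo, at 390 against 473 CPM (-0.28, -0.52 to -0.04) and 275 against 395 CPM (-0.52, -0.83 to -0.23). In a finer osteoblast- or cementoblast-like state of 250 cells led by Pde7b, Tnmd was lower in Lipo-Clo, at 178 CPM (126 to 246) against 386 CPM (323 to 459), a log2 ratio of -1.12 (-1.68 to -0.58).

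Mkx (ENSMUSG00000061013, on the minus strand of chromosome 18) was spread more evenly than the other members. Over both libraries it was highest in state 7 at 66.4 CPM (56.8 to 77.1), followed by state 0 at 53.5, state 4 at 53.4 and state 3 at 48.8 CPM, and the intervals of states 7, 0 and 4 overlapped. That of state 3 (41.8 to 56.6) overlapped those of states 0 and 4 and ended just below that of state 7. The papilla- or pulp-like states held 36.5 and 33.2 CPM and the osteoblast- or cementoblast-like state 35.8 CPM. The odontoblast-like state was at 12.2 CPM (6.998 to 19.9), and the fibroblast-like states, at 5.71 and 6.58 CPM, had intervals that overlapped the 4.34 CPM of neutrophils. Mkx thus reached the papilla- or pulp-like cells, where Scx and Tnmd were at a background level.

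With all UMIs counted, Mkx was lower in Lipo-Clo in all 10 states, a pattern shared by 8.46% of the 4692 genes found in at least 10% of mesenchymal cells of either library. The difference was beyond counting error in 6 states, and the share of all genes with as many such states was not computed. In state 4 Mkx was at 31.5 CPM (21 UMIs) against 61.7 CPM (109 UMIs), a log2 ratio of -0.97 (-1.72 to -0.29). In state 3 it was at 36.3 against 67.9 CPM, a log2 ratio of -0.90 (-1.35 to -0.46). In state 0 it was at 43.5 against 68.9 CPM, a log2 ratio of -0.66 (-1.03 to -0.30). States 2, 5 and 6 had ratios of -0.56, -0.91 and -0.69. In state 7, where Mkx was highest, 60.8 CPM (48.4 to 75.3) stood against 72.7 CPM (58.3 to 89.5), which did not differ beyond counting error (log2 ratio -0.26, -0.71 to 0.19). In the finer state led by Pde7b Mkx was at 86.7 against 77.9 CPM (log2 ratio 0.16, -0.80 to 1.08).

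At a finer resolution 149 of the 318 Scx UMIs fell in a tendon-like state led by Abi3bp and Fmod, which had 6 of 8 tendon markers. This state held 88 Lipo-Clo and 297 Lipo-PBS cells. Scx stood at 137 CPM (116 to 161) in it against 6.73 CPM in all other mesenchyme. Keratocan (Kera), a small proteoglycan of tendon and cornea, stood at 349 against 4.46 CPM. Cilp2, an intermediate-layer matrix protein, stood at 107 against 1.71 CPM. Since these genes helped to form the states, these levels only describe the state.

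Within the tendon-like state Scx and Tnmd were higher in the Lipo-Clo cells. Scx gave 64 UMIs from 32 of 88 cells (36.4%), 286 CPM (220 to 365), in Lipo-Clo and 85 UMIs from 54 of 297 cells (18.2%), 98.5 CPM (78.7 to 122), in Lipo-PBS. The log2 ratio was 1.54 (1.05 to 2.02). Tnmd was at 1014 CPM (886 to 1155) and 516 CPM (469 to 566), a log2 ratio of 0.98 (0.74 to 1.21), and 1 Lipo-PBS cell alone held 46 of the 445 Tnmd UMIs. Mkx gave 8 and 51 UMIs and a log2 ratio of -0.73 (-2.01 to 0.36). In this state 13.1% of 6654 genes were higher by 1.5-fold or more and 20.6% were lower. The Lipo-Clo values rest on 88 cells of 1 library, and when each library was clustered alone the state with most Scx was at 98.2 CPM for Lipo-Clo and 30.5 CPM for Lipo-PBS.

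Of 75 listed tendon and ligament genes 65 had at least 20 UMIs in that state, and 52 of them stood above their level in the other mesenchyme. Listed genes could help to form this state, and some were the markers that named it, so that count only describes the state. By the 1.5-fold limit 4 were higher in Lipo-Clo and 13 lower, where all genes of the state gave 13.1% and 20.6%. Beyond counting error 14 were higher and 10 lower. For this count and for the 52 genes the share over all genes of the state was not computed. The median log2 ratio was -0.02. Myostatin (Mstn), a TGF-β family ligand that restrains muscle growth, was at 147 CPM (33 UMIs) against 46.4 CPM (40 UMIs), a log2 ratio of 1.67 (0.96 to 2.37), and was at 0.717 CPM in the other mesenchyme. Its UMIs came from 6.82% of the 88 Lipo-Clo and 4.71% of the 297 Lipo-PBS cells of the state, so few cells carry this ratio. Periostin (Postn), the ligament matrix protein, had a log2 ratio of 0.71 (0.60 to 0.83) in this state. Over the whole mesenchyme Postn was lower in Lipo-Clo, at 2030 against 2871 CPM (log2 ratio -0.50, -0.52 to -0.48). In the tendon-like state Kera had a log2 ratio of -0.71 (-1.16 to -0.28) and the TGF-β-responsive Ccn2 of -0.74 (-1.06 to -0.44). The growth factor gene Fgf18 had -1.43 (-2.33 to -0.63) there. Of the 48 Lipo-PBS Scx UMIs of state 0, 34 lay in a ligament-like finer state led by Entpd3. In all, that finer state had 1 UMI in 37 Lipo-Clo cells and 34 UMIs in 182 Lipo-PBS cells, 6.89 and 39.3 CPM (log2 ratio -2.51, -7.86 to 0.06). The part of this finer state in the difference of state 0 was not tested.

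**Figure D3:**
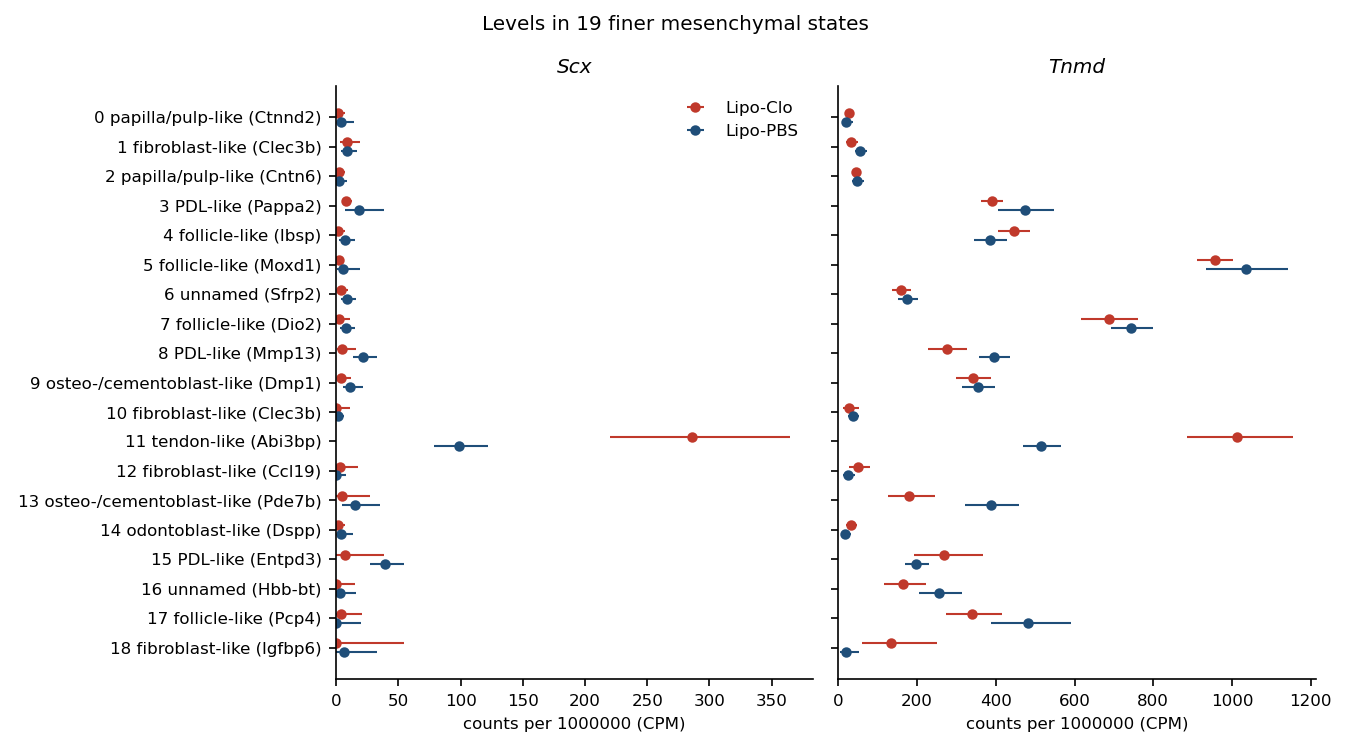
Scx and Tnmd in the 19 finer mesenchymal states with at least 100 cells, as counts per 1000000 (CPM) of Lipo-Clo (red) and Lipo-PBS (blue) with 95% Poisson intervals. The tendon-like state 11 held Scx at 286 and 98.5 CPM, and Tnmd was also high in the follicle-like states 5 and 7.

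State 4 held 106 cells with a Scx UMI and 703 without, of nearly equal depth (medians of 2766 and 2781 UMIs). Ratios between them were ranked only for genes with at least 50 UMIs in the cells with Scx. This filter favours genes that are high in those cells, so the ranking only describes them. The 10 largest were those of Kera, Cilp, Cilp2, Ckb, Fibin, Abi3bp, Tnmd, Igfbp6, Tagln and Acta2. Kera was at 674 CPM in the cells with Scx and 78.0 CPM in the others, a log2 ratio of 3.11 (2.82 to 3.41), with 3.77 in Lipo-Clo and 3.07 in Lipo-PBS. Cilp and Cilp2 had log2 ratios of 2.69 and 2.47. The creatine kinase gene Ckb had 2.14, Fibin 2.07 and the matrix gene Abi3bp 1.90. Tnmd was at 1237 against 341 CPM, a log2 ratio of 1.86 (1.68 to 2.03), with 2.09 in Lipo-Clo and 1.73 in Lipo-PBS. Igfbp6, which encodes a binding protein of insulin-like growth factors, was at 1.62, and the contractile genes Tagln and Acta2 were at 1.54 and 1.48. Mkx did not differ beyond counting error between these cells, at 39.3 CPM with and 55.6 CPM without (log2 ratio -0.50, -1.45 to 0.33).

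Cells of state 3 with and without Tnmd differed in depth, with medians of 3562 and 2257 UMIs. Under the same filter of 50 UMIs, the 10 genes with the largest ratios rested on 1 to 3 UMIs in the cells without Tnmd. Cells of state 7 with and without a Mkx UMI differed little. The largest ratio there under that filter was 1.12 for the microtubule-severing gene Spast, with -0.32 for Lipo-Clo and 1.88 for Lipo-PBS. Tnmd was at 272 CPM in the cells with Mkx and 199 CPM in the others.

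Scx and Tnmd were found in the same mesenchymal cell more often than the product of their shares gives. In Lipo-Clo 43 cells held both, against 27.6 from the product, and in Lipo-PBS 85 against 53.9. At 1000 UMIs per cell the counts were 16 against 7.76 and 19 against 9.32. In state 4 the counts were 23 cells against 15.6 in Lipo-Clo and 43 against 30.7 in Lipo-PBS. In state 0 the counts were close to the product, at 10 against 8.88 and 19 against 21.6. Scx and Mkx shared 10 mesenchymal cells against a product of 6.75 in Lipo-Clo and 25 against 19.5 in Lipo-PBS. In state 4 these numbers were 4 against 2.82 and 6 against 10.7. Tnmd and Mkx also shared more mesenchymal cells than the product, at 219 against 143 in Lipo-Clo and 249 against 168 in Lipo-PBS. At 1000 UMIs per cell these counts were closer to the product, at 34 against 27.2 and 32 against 27.0. With all UMIs they were 62 against 59.6 and 64 against 56.4 in state 3. In state 7, where Mkx was highest, they were 35 against 23.7 and 32 against 26.2. All 3 members were found together in 6 Lipo-Clo and 13 Lipo-PBS cells.

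Outside the mesenchyme Scx was also found in epithelium, where Tnmd and Mkx did not exceed their level in B cells. Epithelial cells held 58 Scx UMIs in Lipo-Clo (21.8 CPM, 16.6 to 28.2) and 52 in Lipo-PBS (19.8 CPM, 14.8 to 25.9), which is 19.9% of all 554 Scx UMIs. Erythroid cells and neutrophils held 0.375 and 0.868 CPM. The highest epithelial level was in a cluster of 134 cells led by Dsc3, Nppc, Wnt4 and Fst, at 60.6 CPM (10 UMIs) in Lipo-Clo and 109 CPM (26 UMIs) in Lipo-PBS. Krt14, a basal keratin, was found in 78.3% of the 23 cells with Scx in that cluster and in 73.9% of all its cells, and no Tnmd UMI was found in those 23 cells. Bop1 was at 14.9 CPM there (5.46 to 32.4) against 89.3 CPM of Scx (62.5 to 124). The ameloblast-like cluster with Amelx held 20.4 CPM of Scx and 20.8 CPM of Bop1, so Scx did not exceed the gene around it there.

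Among the other classes, skeletal muscle cells held 36.1 CPM of Scx (15.6 to 71.2) from 8 UMIs in 101 cells, and Mkx was found in none of them, which allows a level of up to 16.7 CPM. Cycling cells held all 3 members, with Scx at 11.6 and 28.8 CPM, Tnmd at 320 and 219 CPM and Mkx at 41.5 and 50.1 CPM (Lipo-Clo, then Lipo-PBS). A single Lipo-PBS cell held 9 of the 19 Scx UMIs there, and without it, an alternative added after seeing the data, the level was 15.3 CPM. Tnmd in blood and vessel classes lay between 38.2 CPM in neutrophils and 101 CPM in B cells. The cluster with markers of several lineages held 0 and 43 Scx UMIs and 307 and 144 CPM of Tnmd. Counting it as mesenchyme, an alternative chosen after seeing the data, moved the Tnmd log2 ratio of the mesenchyme to 0.37 and left Scx at -0.98 and Mkx at -0.39.

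**Figure D4:**
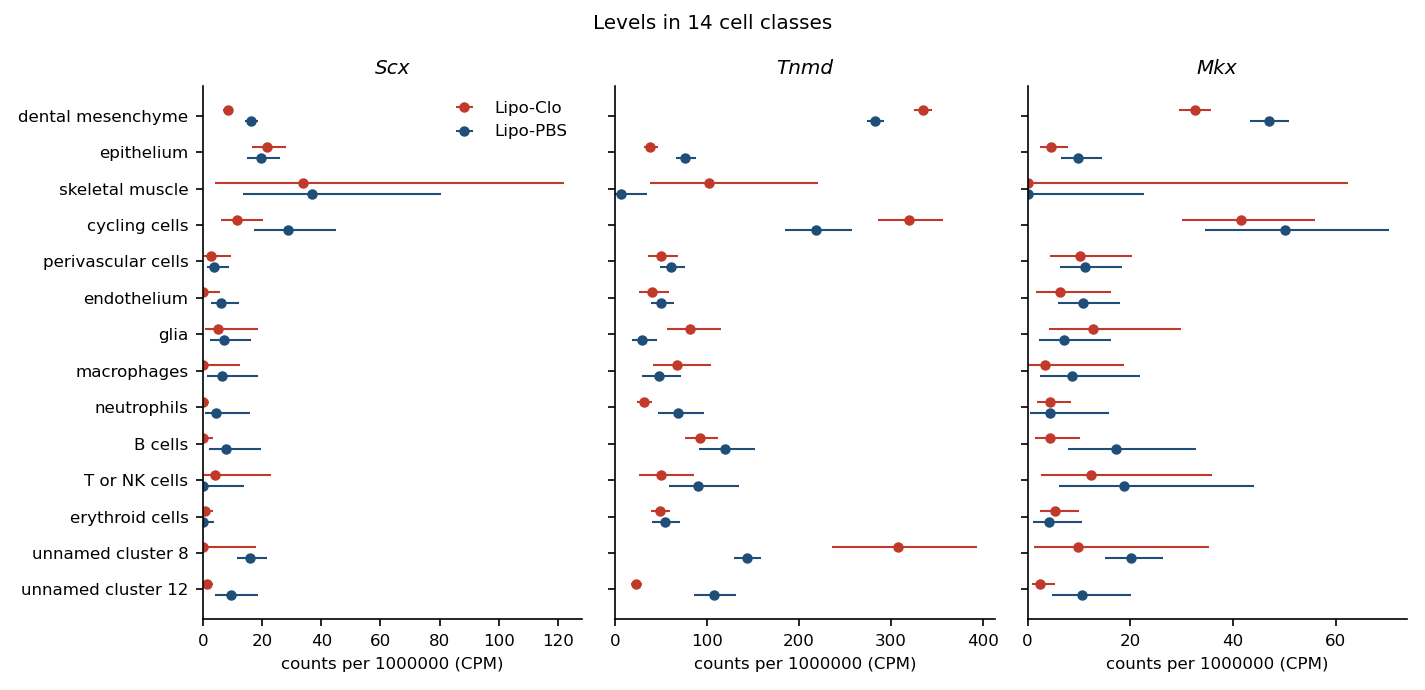
Scx, Tnmd and Mkx in 14 cell classes, as counts per 1000000 (CPM) of Lipo-Clo (red) and Lipo-PBS (blue) with 95% Poisson intervals. Tnmd and Mkx were highest in dental mesenchyme and cycling cells, while Scx in epithelium, at 21.8 and 19.8 CPM, was not below its level in mesenchyme.

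Several other tendon and ligament genes were lower in the Lipo-Clo mesenchyme. Of 75 listed genes 54 were found in at least 10% of cells of either library, 0 were higher and 13 lower by 1.5-fold or more. Among all 4692 such genes 0.789% were higher and 5.01% lower by that limit, and the median log2 ratio was -0.25 for the list and -0.01 for all genes. Weighting both libraries to the same mixture of states left 8 genes lower, where 3.325% of all such genes were lower. Col14a1, Fmod, Dcn, Fbn1 and Tgfbr3 were then no longer past the limit. Of the genes left, Tnn was at -1.13, Col12a1 at -0.91, Ecm2 at -0.74 and Ccn2 at -0.72. Aspn and Eya1 followed at -0.68, Chodl at -0.62 and Prelp at -0.61. The elastic fibre gene Eln was then the 1 gene higher, at 0.61, where 0.554% of all such genes were higher.

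Matrix genes were 10 of those 13, out of 33 matrix genes with a median log2 ratio of -0.26. Proteoglycans and other matrix proteins were among them, and their ratios are given here without the weighting to the same mixture of states. Ecm2 was at 15.3 against 38.8 CPM (log2 ratio -1.35, -1.59 to -1.11), Prelp at 30.2 against 73.6 CPM (-1.29, -1.46 to -1.12) and Aspn, an inhibitor of mineralisation in the ligament, at 578 against 1135 CPM (-0.97, -1.01 to -0.93). Of the collagens that coat fibrils, Col14a1 had a log2 ratio of -1.21 (-1.30 to -1.13) and Col12a1 of -0.81 (-0.84 to -0.79). Col14a1 was highest in the fibroblast-like states 8 and 1 (1226 and 1189 CPM), against 7.43, 14.9 and 136 CPM in states 0, 3 and 4. States 8 and 1 held 126 and 454 Lipo-Clo cells against 283 and 708 Lipo-PBS cells. The tenascin Tnn had a log2 ratio of -0.94, while its relative Tnc was at 0.26 (0.20 to 0.33). Col1a1, the main collagen of the ligament, was at 0.15 and Col3a1 at -0.11. Kera, found in too few cells for the count, gave 91 UMIs in Lipo-Clo and 400 in Lipo-PBS (log2 ratio -2.20, -2.54 to -1.87).

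Of 9 transcription factors and partners 1 was lower by the limit, Eya1 at -0.69 (-0.83 to -0.54), and the median was -0.20. Six2, which pairs with Eya proteins, was at 0.40 (0.21 to 0.60). Meox2, a homeobox gene found in too few cells for the count, gave 45 and 149 UMIs (log2 ratio -1.79, -2.30 to -1.30). It was highest in the fibroblast-like states 1 and 8 (40.7 and 38.6 CPM). Of 12 genes for TGF-β and GDF inputs, which induce Scx in tendon progenitors, 2 were lower and the median was -0.29. These were Ccn2 at -1.32 (-1.44 to -1.20) and the co-receptor Tgfbr3 at -0.69 (-0.83 to -0.55). With the same mixture of states Ccn2 was at -0.72 and Tgfbr3 was no longer past the limit. The receptors Tgfbr1 and Tgfbr2 were at -0.55 and -0.52, and the ligand Tgfb1 was at 0.22. Of 5 skeletal lineage genes that oppose or neighbour the tendon fate, the cartilage factor Sox9 was higher at 0.70 (0.52 to 0.88), and the osteoblast factor Sp7 was at 0.52 (0.38 to 0.66). Sox9 was highest in the papilla- or pulp-like states 5 and 6 (271 and 158 CPM). These held 500 and 435 Lipo-Clo cells against 265 and 242 Lipo-PBS cells. In states 0, 3 and 4 Sox9 was at 7.43, 5.33 and 23.4 CPM. The part of the mixture of states in its ratio was not tested.

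**Figure D5:**
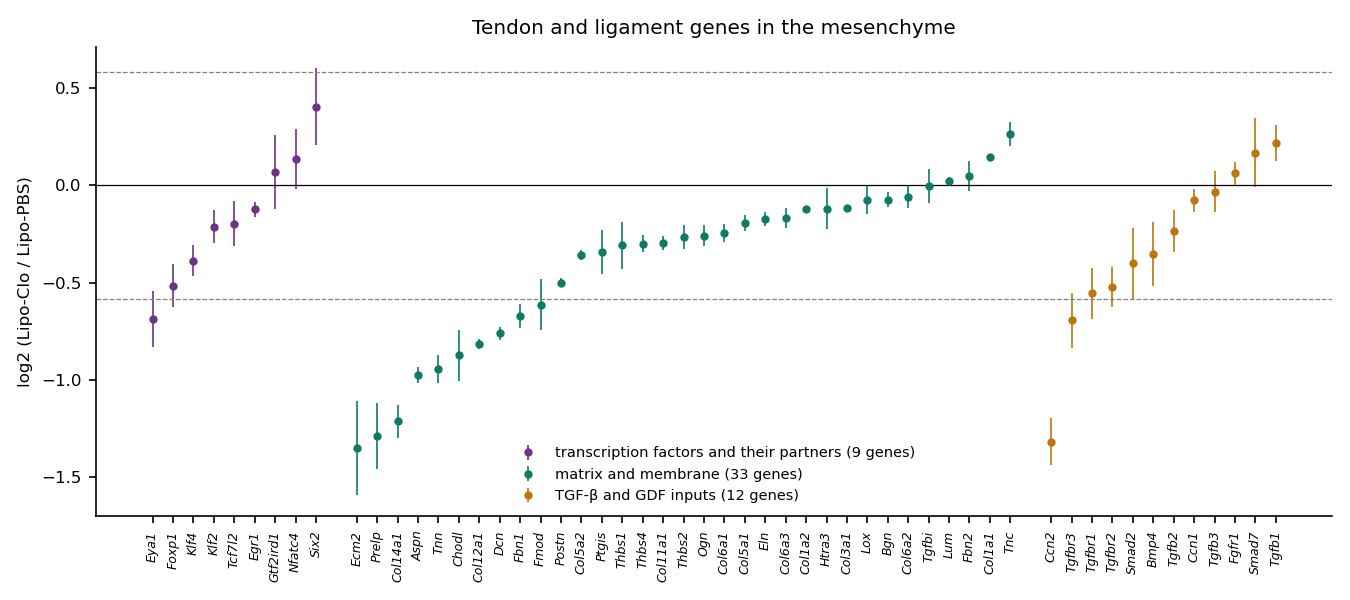
Log2 ratio of Lipo-Clo to Lipo-PBS in the mesenchyme for 54 tendon and ligament genes in 3 groups, with 95% intervals for counting error. Dashed lines mark the 1.5-fold limit, which 13 genes passed below and 0 above.

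The likeness of other genes to each member was taken over the 10 states, on log2(CPM + 1) among 9780 genes with at least 200 mesenchymal UMIs. Tnmd was most like Col12a1, with a Pearson r of 0.97, which was also highest in state 3 at 4391 CPM. Smim3, Glipr1, Kctd10 and Ddah1 followed at 0.95 to 0.96. Mkx was most like St6galnac2 (0.93), Sap30 (0.93), Rflnb (0.93), Omd (0.92) and Nradd (0.92), of which Omd encodes a proteoglycan of mineralised tissue. Scx had no gene as near: Tsc22d3, a glucocorticoid-induced gene, reached 0.89, and Psmc3, Pde3b, Nrbf2 and Cdc42bpa 0.79 to 0.82. The Scx values rest on 318 UMIs, against 8100 for Tnmd and 1036 for Mkx. In each of states 5, 6, 8 and 9 there were only 3 or 4 Scx UMIs. The part of counting error in the lower r of Scx was not tested. Among the members r was 0.63 for Scx and Tnmd, 0.68 for Tnmd and Mkx and 0.39 for Scx and Mkx. All points come from the same 2 libraries, and states of like cells are not independent.

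Relatives of the members were found in other cells. Cnmd, the chondromodulin relative of Tnmd, gave 36 UMIs in the mesenchyme, of which 20 were in the papilla- or pulp-like state 5. Tcf15, a helix-loop-helix relative of Scx, was at 67.3 CPM in perivascular cells, 18.6 CPM in endothelium and 0.229 CPM in mesenchyme. Irx5, of the Iroquois family to which Mkx is related, was at 185 CPM in the odontoblast-like state 9 and 163 CPM in state 5, where Mkx was at 12.2 and 33.2 CPM. In the ligament- and follicle-like states 0, 3 and 4 Irx5 was at 2.12, 3.09 and 4.93 CPM.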

How the data were processed

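Per the file headers, the authors deposited for each library a matrix of UMI counts written by Cell Ranger 8.0.0; the submitters' processing notes list Cell Ranger 3.1.0, Seurat 3.1.1 and GRCm39. The text columns deposited beside the counts hold gene names and barcodes. Cells under 200 genes or above 20% mitochondrial UMIs were left out. Scrublet's automatic limit marked 0 and 1 cells, so the highest scores were left out in both libraries (632 and 633 cells). Cells were clustered with scanpy 1.11.5 and leidenalg 0.10.2 (2000 variable genes without the members, 30 components, 20 neighbours, resolution 1), and the mesenchyme again (20 components, resolution 0.6). Names need at least 3 markers. UMIs were summed per library and state and given as counts per 1000000, with exact Poisson intervals. Shares have Clopper-Pearson intervals and ratios exact conditional intervals, all at 95%. PCR and cell-to-cell spread are not in them. Genes in use had a UMI in at least 10% of mesenchymal cells of either library. edgeR 4.0.16 (TMM) and DESeq2 1.42.0 gave scaling factors only, and no count test was run because each condition has 1 library. The interval script was tested on simulated counts. Promoter windows came from RefSeq, in which Tnmd matched and Scx was not found. The members, lists and tests were chosen with earlier results of these data known. Named were the members, Bop1, their relatives, the listed genes and the 5 genes most like each member. Also named were the 10 genes with the largest ratio in cells with a member, among genes with at least 50 UMIs there. Other genes were chosen after their values were seen.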

Additional observations from a re-analysis of the deposited data

Results flagged for a closer look

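With all UMIs counted, Scx moved in opposite directions between the libraries in different mesenchymal states, each beyond counting error. The log2 ratio of Lipo-Clo to Lipo-PBS was -2.12 in the Crispld2 and Tnn state 0, -1.53 in the osteoblast- or cementoblast-like state 2 and 0.72 in the Edil3 state 4. The difference between states was not tested, since each condition has 1 library. Within state 4 the tendon-like finer state held 64 Lipo-Clo and 85 Lipo-PBS UMIs of Scx and a ligament-like finer state 2 and 21. The value of state 2 rests on 5 and 16 UMIs. After thinning, the shares of cells with Scx had overlapping intervals in each of these states. They were 0.285% (0.0346 to 1.03) in Lipo-Clo and 1.93% (0.836 to 3.76) in Lipo-PBS for state 0. For state 2 they were 0.791% and 0.575%. For state 4 they were 9.26% (5.75 to 13.9) and 5.85% (4.04 to 8.16).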

How the results depend on the processing

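No paired analysis was possible because a condition has 1 library, and no replicate could be left out. The log2 ratios of the mesenchyme stayed inside their intervals under other cell filters, kept doublets, other resolutions, TMM, DESeq2 and other totals. With cells thinned to 1000 UMIs, Scx moved to -0.32 and Mkx to -0.32. With the same mixture of 10 states, Scx moved to -0.21 and Tnmd to 0.16, and with the mixture at resolution 1.2 Scx reversed to 0.22 and Tnmd to -0.04. With the cluster of several lineages counted, Tnmd moved to 0.37. The cause was not tested.

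Shares of cells fall with depth by construction: at 1000 UMIs they were 0.917% and 1.38% for Scx, 22.8% and 18.6% for Tnmd and 3.21% and 4.00% for Mkx, and at 2 or more UMIs 0.464% and 0.797%, 23.9% and 21.1%, and 1.08% and 2.49% (Lipo-Clo, then Lipo-PBS).

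The highest level in a state moved with how finely the mesenchyme was split. At resolution 0.3 it was 26.0 CPM for Scx, in a fibroblast-like state, 639.6 for Tnmd and 52.9 for Mkx, both in ligament-like states. At resolution 1.2 it was 137 for Scx (tendon-like), 970.4 for Tnmd (follicle-like) and 81.3 for Mkx (osteoblast- or cementoblast-like). With the list kept out of the variable genes Scx reached 103 and Tnmd 729, and with libraries clustered alone Scx reached 98.2 and 30.5 and Tnmd 913 and 841. Mkx then peaked in a papilla- or pulp-like and in a follicle-like state.

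The 13 lower list genes were 22 at the lower alternative fold limit (with Six2 as 1 higher), 4 at 2-fold, 20 of 73 without the filter on shares and 8 with the same mixture (with Eln as 1 higher). Over all genes the lower shares in that order were 17.9%, 0.980%, 9.23% and 3.325%, beside 5.01% in the main setting. Higher over all genes were 14.7% at the lower alternative limit and 0.554% with the same mixture.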
